A study of Homo sapiens with 21 samples.

Results

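The RNAs described here are the small nuclear RNAs of the spliceosome and the small nucleolar and Cajal body RNAs that were recovered with 5 RNA-binding proteins in human cells. A gene name counted as a member when it began with RNU and a digit, with SNORA, with SNORD or with SCARNA, and a cluster that carried several merged names counted when any of them did. By that rule 298 of the 18003 gene names in 15 cluster lists were members. They comprised 121 snRNA names, 65 H/ACA box snoRNA names (SNORA), 102 C/D box snoRNA names (SNORD) and 10 Cajal body RNA names (SCARNA). Of the 298 names, 295 matched a RefSeq gene.

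The study compared versions of PAR-CLIP, in which cells take up 4-thiouridine, are irradiated so that the labelled RNA crosslinks to bound protein, and each crosslinked base is then read as a T-to-C conversion. All libraries came from Flp-In T-REx 293 cells, an established line derived from human embryonic kidney, in which a stably integrated construct expressed a FLAG- and HA-tagged AGO2, CPSF1, FUBP3, KHSRP or U2AF1, and the tagged protein was purified with an antibody to FLAG. Cells were given 100 µM 4-thiouridine for 8 to 12 h, except the U2AF1 cells, which were given 250 µM for 2 h. In the fluorescent version the RNA was trimmed with RNase I at 0.15 or 1.5 U/µl (AGO2), 0.5 U/µl (CPSF1), or 0.15, 0.5 and 1.5 U/µl (FUBP3 and KHSRP). The 2 U2AF1 libraries were made from chromatin with a mixture of RNase A and RNase T1 at 1.5 and 15 U/ml, KHSRP was extracted with sonication in a stronger detergent buffer, and the other proteins came from a detergent lysate. In the radiolabelled version AGO2 was treated with 1 U/µl RNase T1 and its cDNA was prepared without or with a urea gel step, with replicates A and B of each, called ungelled and gel-purified below. Those 2 groups were the sole replicated ones, each with 2 libraries, and nothing in the labels says whether A and B were separate cultures. Of 21 samples in the series, 4 were not analysed here and 2 more, FUBP3 and KHSRP treated with RNase T1, fell outside the rule that chose the members.

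AGO2 is the protein that carries microRNAs to their targets. CPSF1 is a subunit of the complex that recognises the polyadenylation signal of mRNAs, FUBP3 and KHSRP are related single-stranded nucleic acid binding proteins with KH domains, and U2AF1 is the small subunit of the factor that recognises the end of introns. Spliceosomal snRNAs work as RNA-protein particles: U1, U2, U4, U5 and U6 remove the great majority of introns, U11, U12, U4atac and U6atac serve a rare class of introns together with U5, and U7 instead trims the ends of histone mRNAs. Most of them share a short uridine-rich site on which a ring of Sm proteins assembles. C/D box snoRNAs guide methylation and H/ACA box snoRNAs guide pseudouridylation of ribosomal RNA, the Cajal body RNAs do the same on snRNAs, and nearly all human snoRNAs are cut out of introns of host genes. An H/ACA RNA folds into a pair of hairpins and ends shortly after an ACA triplet.

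A library contained between 2305 and 180358 clusters and between 53546 and 2172248 reads in them. Shares below are percentages of all reads in a library's clusters, and their exact 95% intervals cover counting error only. No library of total RNA was used here, so a change in an RNA's amount and a change in its binding cannot be told apart. With 1 library per protein and dose outside the radiolabelled AGO2 groups, differences between proteins and doses are descriptions without a replicate check. The smallest cluster listed held 5 reads (4 in U2AF1), so a member with no cluster may still have had a few reads. Labelling time, extraction, RNase and the tagged protein differ together between U2AF1 and the rest and cannot be told apart, and neither can extraction and the tagged protein between KHSRP and the rest. Members had 1 library each in 132 cases, while 39 were listed in 5 or more and the most widely listed one in 12 of the 15.

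In 2 of the 15 libraries, both of U2AF1, the deposited names did not place the reads on the named RNAs. Clusters that carried an snRNA name there lay on RefSeq small RNA genes for 99.7% of the reads at 1.5 U/ml and 100% at 15 U/ml. Clusters that carried a snoRNA or Cajal body name did so for 7.23% and 8.26%. A cluster was counted as lying on an RNA when any of its bases overlapped it, on either strand. Of the 259 and 148 member clusters, 163 and 79 bore several names joined together, usually a snoRNA and the gene around it. In the other 9 libraries with usable coordinates, between 84.9% and 100% of member clusters lay on a RefSeq small RNA. U2AF1 values are therefore given both by name and by position.

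With all clusters counted, AGO2 with RNase I held the largest member shares outside U2AF1. At 0.15 U/µl members held 3.09% of the reads (interval 3.02% to 3.15%, 9130 reads) and at 1.5 U/µl 2.22% (7472 reads). In the radiolabelled AGO2 libraries the share was 0.837% and 1.03% in those made without the gel, and 0.954% and 1.26% in the gel-purified ones. CPSF1 stood at 1.17% (2108 reads). In clusters of at least 10 reads CPSF1 and KHSRP at 1.5 U/µl passed AGO2 at 1.5 U/µl but not AGO2 at 0.15 U/µl. There snRNAs and the other classes held 2.28% and 0.638% in CPSF1 and 2.15% and 0.729% in KHSRP at 1.5 U/µl. AGO2 had 1.18% and 1.07% at 1.5 U/µl and 0.726% and 2.43% at 0.15 U/µl. KHSRP gave 0.163%, 0.141% and 0.839% at 0.15, 0.5 and 1.5 U/µl, and FUBP3 0.0283%, 0.0314% and 0.0508%. U2AF1 held 6.86% at 1.5 U/ml and 7.04% at 15 U/ml by name. The FUBP3 shares were the lowest of the 15 libraries at every dose.

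The class that made up the small RNA reads differed between proteins. The snRNAs held 0.911% of CPSF1 reads against 0.258% for snoRNAs and Cajal body RNAs together, so that 77.9% of the member reads were spliceosomal. In AGO2 at 0.15 U/µl the order was the other way, with 0.712% for snRNAs and 2.37% for the nucleolar classes, nearly all of it H/ACA (2.16%). At 1.5 U/µl the AGO2 snRNA share was 1.16% and the H/ACA share 0.853%. The spliceosomal part of the AGO2 member reads was thus 23.1% at the lower dose and 52.0% at the higher. C/D box RNAs held 0.0784% and 0.0929% of AGO2 reads at the same doses. Across all 15 libraries, and by deposited name, the snRNA share exceeded that of the nucleolar and Cajal body classes in 8. The 4 radiolabelled AGO2 libraries were among these 8 by reads but not by distinct sequences, where snRNAs made up 35.6%, 40.0%, 30.9% and 33.5% of their member sequences.

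**Figure D1:**
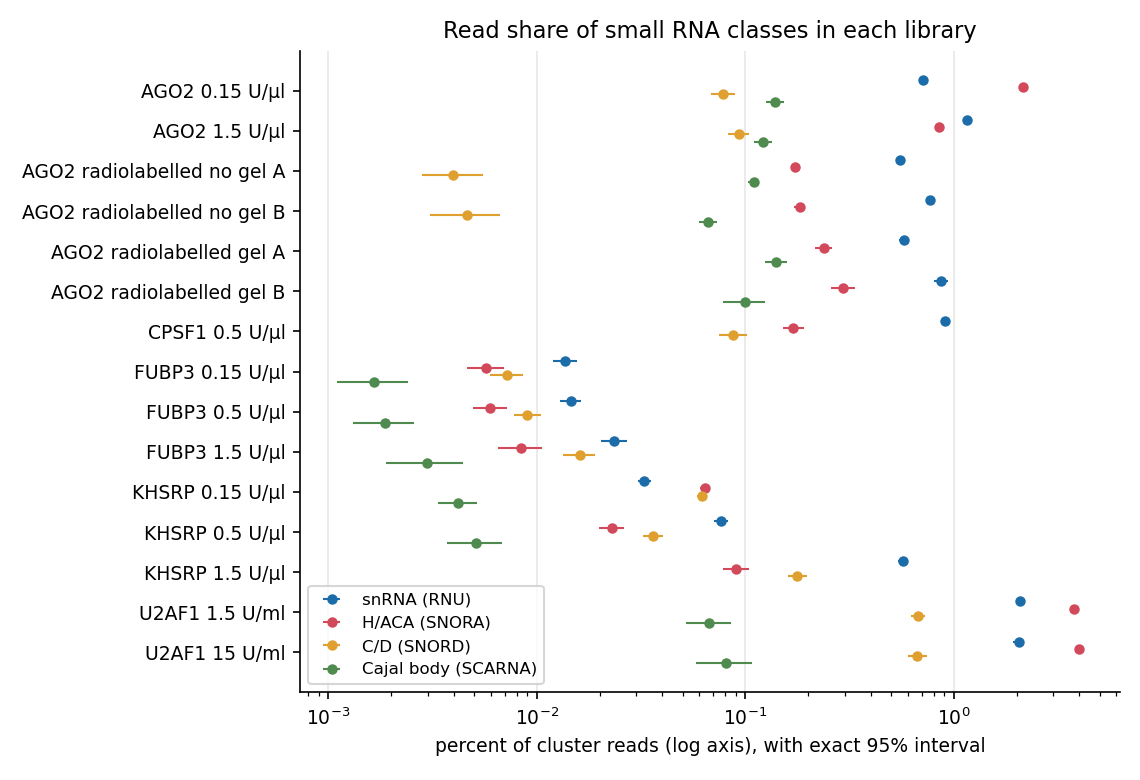
Percentage of cluster reads (log axis) held by each class in each of the 15 libraries, with exact 95% intervals; a class without a cluster in a library has no point. H/ACA RNAs lead in AGO2 at 0.15 U/µl (2.16%) and, by name, in U2AF1 (3.77% and 3.97%), and snRNAs lead in CPSF1 (0.911%) and, by reads but not by distinct sequences, in the radiolabelled AGO2 libraries (0.550% to 0.865%).

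In KHSRP the composition moved with the dose. The snRNA share was 0.0328%, 0.0765% and 0.571% at 0.15, 0.5 and 1.5 U/µl, a rise at each step. The nucleolar and Cajal body share was 0.130%, 0.0643% and 0.268%, lowest at the middle dose. The spliceosomal part of the member reads was 20.1%, 54.4% and 68.1%. FUBP3 showed no such rise: its spliceosomal part was 48.5%, 46.4% and 46.1% by name, and 49.6%, 41.5% and 38.4% with the class taken from the RefSeq gene at the position. In U2AF1 by name the spliceosomal part was 30.2% and 29.0%, while by RefSeq position it was 84.6% and 78.6%. The total number of reads in KHSRP clusters also fell across the doses, from 2172248 to 905433 and 200210, and its part in the shares was not tested. KHSRP clusters under nucleolar and Cajal body names also reached far beyond the annotated RNAs at the lowest dose. Of their bases 53.0% lay inside the annotated RNA at 0.15 U/µl, against 74.4% and 88.4% at the higher doses. The nucleolar share at 0.15 U/µl therefore includes reads from outside the annotated RNAs, and their part in the change with dose was not tested.

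**Figure D2:**
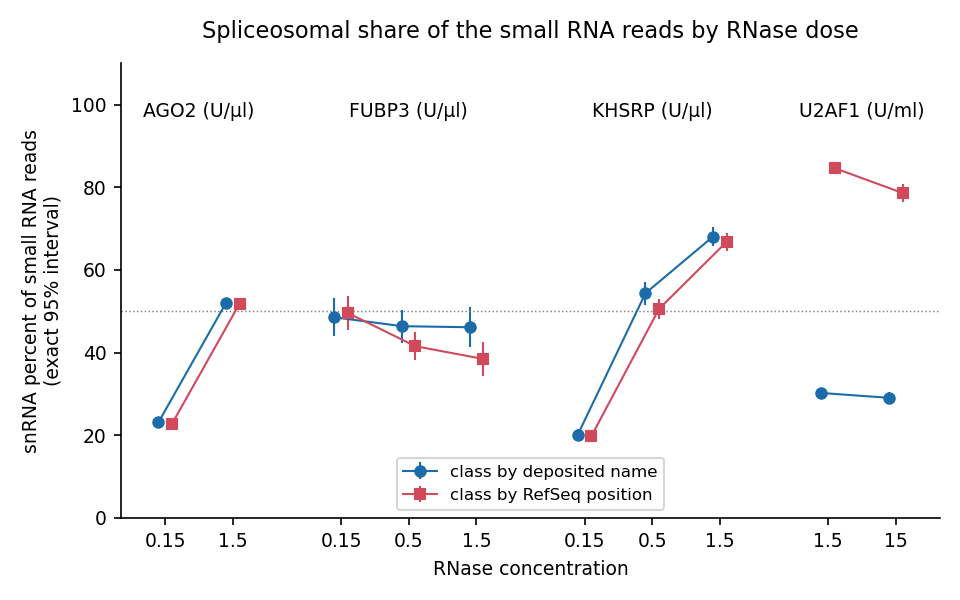
Spliceosomal percentage of the small RNA reads against RNase concentration for each protein, with exact 95% intervals; circles take the class from the deposited name, squares from the RefSeq gene at the position. KHSRP goes from 20.1% to 68.1% and AGO2 from 23.1% to 52.0%, FUBP3 stays between 46.1% and 48.5% by name, and the circles and squares of U2AF1 lie far apart (30.2% against 84.6% at 1.5 U/ml).

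How far a few RNAs held the member reads varied between libraries. In the radiolabelled AGO2 libraries RNU2-2P, SNORA33 and SCARNA15 together made up 89.3%, 89.8%, 91.5% and 95.6% of them. SNORA33, SNORA4 and SCARNA15 made up 62.4% in AGO2 at 0.15 U/µl, and the 3 highest members 47.5% at 1.5 U/µl. In CPSF1 the 3 highest were RNU5D-1, RNU12 and RNU4-2 with 62.1%, and in KHSRP at 1.5 U/µl they were RNU11, RNU12 and RNU5D-1 with 65.0%. The highest 3 held 26.5% and 49.0% in KHSRP at 0.15 and 0.5 U/µl, and 28.8%, 22.7% and 44.4% in FUBP3 at the 3 doses.

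The snRNAs of the major spliceosome are taken first. U5, whose loop holds the ends of the exons during splicing, was by deposited name the leading snRNA of CPSF1 and of U2AF1 at 1.5 U/ml. RNU5D-1 had 731 reads in CPSF1, which is 0.405% of its reads. It had 1190 reads in U2AF1 at 1.5 U/ml and no cluster at 15 U/ml. In KHSRP it had 55, 113 and 174 reads at the 3 doses, or 0.00253%, 0.0125% and 0.0869%. FUBP3 listed it at 0.5 U/µl (61 reads) and 1.5 U/µl (47 reads), and AGO2 at both RNase I doses (68 and 94 reads). At 0.5 U/µl its share in CPSF1 was 32.5-fold that in KHSRP and 131-fold that in FUBP3. Other U5 genes were prominent in AGO2, where RNU5B-1 had 289 and 306 reads, RNU5F-1 184 and 187, and RNU5A-1 160 and 163. These U5 genes differ in few bases, so the division of reads between them is uncertain.

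The RNU5D-1 clusters of 3 proteins are printed because they overlap around the uridine-rich Sm site, as did those of AGO2 and FUBP3. They lie on the minus strand of chromosome 1 in hg38, at chr1:44731054-44731115 (CPSF1), chr1:44731068-44731102 (KHSRP at 0.5 U/µl) and chr1:44731061-44731105 (U2AF1 at 1.5 U/ml), read 5′ to 3′ with the Sm-like motif in capitals.
RNU5D-1 in CPSF1: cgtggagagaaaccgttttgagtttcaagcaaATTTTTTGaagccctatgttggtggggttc
RNU5D-1 in KHSRP: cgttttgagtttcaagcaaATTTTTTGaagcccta
RNU5D-1 in U2AF1: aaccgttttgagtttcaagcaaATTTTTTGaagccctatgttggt
The CPSF1 cluster covered nt 56 to 117 of an RNA annotated as 102 nt long, and so ran 15 nt past the annotated 3′ end. The U2AF1 cluster covered nt 66 to 110 and the KHSRP cluster nt 69 to 103. In CPSF1 31.1% of the reads of this cluster were converted, against 92.7% of all CPSF1 cluster reads.

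The Sm-like motif was searched as ATTTTTG or ATTTTTTG on both strands, and the longer form contains no copy of the shorter one. It was found on the sense strand in between 0 and 42.9% of the snRNA clusters of a library, and in between 0.153% and 2.60% of all other clusters weighted to the same lengths. The highest share was in KHSRP at 1.5 U/µl (3 of 7 snRNA clusters, against 0.677% of others) and the share of 0 in U2AF1 at 15 U/ml (34 clusters). No snRNA cluster of any library held it on the reverse strand. In CPSF1, 57.5% of the snRNA reads were in the 2 of 15 clusters that held it.

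U2, which pairs with the branch point of introns, dominated the radiolabelled AGO2 libraries. RNU2-2P, counted here as a gene and not as a pseudogene copy, had 4831 and 4435 reads in the ungelled pair and 960 and 655 in the gel-purified pair. Copies of U2 are near-identical too, so the named copy is uncertain, here and in the values below. The U2 family there held 96.0%, 94.9%, 92.1% and 97.6% of the snRNA reads. With RNase I the same RNA had 27 reads in AGO2 at 0.15 U/µl and 753 at 1.5 U/µl, or 0.00913% and 0.224%, a 24.6-fold difference (interval 16.8 to 37.5, counting error only). KHSRP listed it with 6, 26 and 33 reads, FUBP3 with 6 and 13 at the upper doses, and CPSF1 and U2AF1 not at all. The reads of the radiolabelled libraries came from few distinct sequences: between 8.80 and 16.1 per 100 snRNA reads, against 80.0 and 86.2 in the fluorescent AGO2 libraries.

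The position of the U2 reads differed between the libraries. At 1.5 U/µl 720 of the 753 AGO2 reads lay in 1 cluster at chr11:62841604-62841649 on the minus strand, from nt 161 to nt 206 of an RNA annotated as 191 nt, shown here because it runs past the annotated end (capitals).
RNU2-2P in AGO2 at 1.5 U/µl: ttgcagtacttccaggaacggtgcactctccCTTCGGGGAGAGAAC
In the ungelled pair the main clusters covered nt 37 to 206 and nt 107 to 214. In the gel-purified pair they were shorter, nt 110 to 166 and nt 128 to 166, and stopped before the annotated end. They are shown next because their shared last bases mark a common 3′ boundary; no genome coordinate is given for these libraries, whose coordinates did not match hg38.
RNU2-2P with gel, replicate A: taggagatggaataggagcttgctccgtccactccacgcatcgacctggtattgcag
RNU2-2P with gel, replicate B: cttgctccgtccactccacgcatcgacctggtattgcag

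U4, which keeps U6 inactive until the spliceosome forms, was recovered with AGO2, CPSF1, FUBP3 and KHSRP. RNU4-2 had 213 reads in CPSF1 (0.118%), 143 and 160 in AGO2, and 51 and 40 in KHSRP at the lower doses. It was the leading member of FUBP3 at 0.15 U/µl (61 reads) and at 1.5 U/µl (104 reads, 0.0128%), with 7 reads between. The ratio between the outer FUBP3 doses was 3.54 (interval 2.56 to 4.94). RNU4-1, a near-identical copy, had 129 reads in CPSF1, 75 and 43 in AGO2 and 49 in KHSRP at 0.15 U/µl.

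Different stretches of U4 were recovered with different proteins, as the following pair shows. The CPSF1 cluster covered nt 67 to 144 of RNU4-2 (chr12:120291760-120291837, minus strand, Sm-like motif in capitals). The largest FUBP3 cluster at 1.5 U/µl covered nt 23 to 67 with 79 reads (chr12:120291837-120291881).
RNU4-2 in CPSF1: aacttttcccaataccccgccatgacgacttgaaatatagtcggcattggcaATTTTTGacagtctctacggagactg
RNU4-2 in FUBP3: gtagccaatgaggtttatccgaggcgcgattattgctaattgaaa
KHSRP clusters on this RNA lay at nt 18 to 58 and nt 19 to 61. AGO2 had clusters on both sides, with 62 and 104 reads over nt 21 to 60 and 18 to 59, and 81 and 56 reads over nt 66 to 140 and 67 to 144. In FUBP3 a second cluster of 24 and 25 reads lay at nt 71 to 110 and 69 to 101.

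U1, which recognises the start of introns, and U6, which is part of the catalytic centre, were listed mostly under names of pseudogene copies. Within the RNU1 names of the rule, all reads had such names, from 5 reads in a radiolabelled AGO2 library to 649 in U2AF1 at 15 U/ml. U6 reads outside U2AF1 numbered 9 to 57 where listed. They were all at such names except in AGO2 at 0.15 U/µl, where 5 of 16 were, and in U2AF1 at 15 U/ml 77.4% were. Their true copies are many and nearly identical, so the named copy is uncertain. The U2AF1 values for U1 were 0.387% at 1.5 U/ml and 1.21% at 15 U/ml, over 9 names each. RNU1-148P held 202 and 452 of these reads, in a cluster at nt 127 to 149 of the copy with 96.5% and 97.3% of reads converted.

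The share of snRNA reads at pseudogene names varied between libraries. In AGO2 with RNase I it was 4.32% and 4.86%, in CPSF1 4.32%, and in the radiolabelled libraries between 0 and 2.87%. In FUBP3 it was 44.2%, 46.5% and 13.7%. In U2AF1 it was 39.5% at 1.5 U/ml and 92.3% at 15 U/ml. KHSRP fell from 16.5% to 4.47% and 0.875% with the dose.

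The minor spliceosome, U11, U12, U4atac and U6atac, was prominent in KHSRP, AGO2 with RNase I, and CPSF1. These families held 50.8%, 67.2% and 80.2% of the KHSRP snRNA reads at the 3 doses, 35.9% and 31.6% in AGO2, and 30.9% in CPSF1. In the radiolabelled AGO2 libraries they held 0.665% and 0.745% of the ungelled and 2.55% and 1.34% of the gel-purified snRNA reads. FUBP3 had 6.06%, 20.8% and 0%. U2AF1 had 8.81% and 28.9%, all of it U6atac.

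RNU11, which takes the place of U1 at the start of minor introns, was the leading member of KHSRP at every dose. It had 362, 466 and 554 reads, or 0.0167%, 0.0515% and 0.277%. The ratio of the highest to the lowest dose was 16.6 (interval 14.5 to 19.0). AGO2 had 315 and 419 reads (0.106% and 0.125%), CPSF1 119 (0.0660%) and FUBP3 43 at 0.5 U/µl. The covered stretch also differed between the doses. At 0.15 U/µl KHSRP reads lay at nt 20 to 59, at the 2 higher doses they reached from nt 21 or 22 to nt 132, and in CPSF1 they lay at nt 21 to 56. The short and the long KHSRP cluster are printed to show what the second one adds, the Sm-like motif (capitals) and the 3′ part (chr1:28648619-28648658 and chr1:28648620-28648731, plus strand).
RNU11 in KHSRP at 0.15 U/µl: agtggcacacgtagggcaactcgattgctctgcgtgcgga
RNU11 in KHSRP at 0.5 U/µl: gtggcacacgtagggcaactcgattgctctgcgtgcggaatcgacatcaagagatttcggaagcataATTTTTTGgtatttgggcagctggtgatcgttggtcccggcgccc

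RNU12, which takes the place of U2 at the minor branch point, had 360 and 799 reads in AGO2 (0.122% and 0.238%), 365 in CPSF1 (0.202%) and 363 in KHSRP at 1.5 U/µl (0.181%). KHSRP listed none at the lower doses, although those libraries were deeper. In CPSF1 the reads lay at the 3′ end, nt 117 to 153 of an RNA annotated as 150 nt, printed here because it lies almost wholly within the longer AGO2 and KHSRP clusters (chr22:42615360-42615396, plus strand).
RNU12 in CPSF1: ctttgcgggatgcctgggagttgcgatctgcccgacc
KHSRP covered nt 76 to 151. AGO2 at 1.5 U/µl had 278 reads at nt 1 to 61 and 521 at nt 66 to 154. In the radiolabelled libraries without the gel the 34 and 27 reads lay at nt 1 to 49 and nt 1 to 42.

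U6atac, the minor counterpart of U6, was listed in U2AF1 under 11 and 14 names with 174 and 316 reads (0.183% and 0.590%). All of the 174 and 75.6% of the 316 were at pseudogene names. RNU6ATAC itself had 77 reads at 15 U/ml, at nt 34 to 77, and 15 in CPSF1. RNU4ATAC had 82 reads in AGO2 at 0.15 U/µl. U7, the histone mRNA processing RNA, was read in AGO2 as RNU7-1 with 302 and 765 reads (0.102% and 0.228%), over nt 9 to 65 and 8 to 64 of 63 annotated nt. All U7 reads of FUBP3, KHSRP and U2AF1 were at pseudogene names and numbered at most 21.

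**Figure D3:**
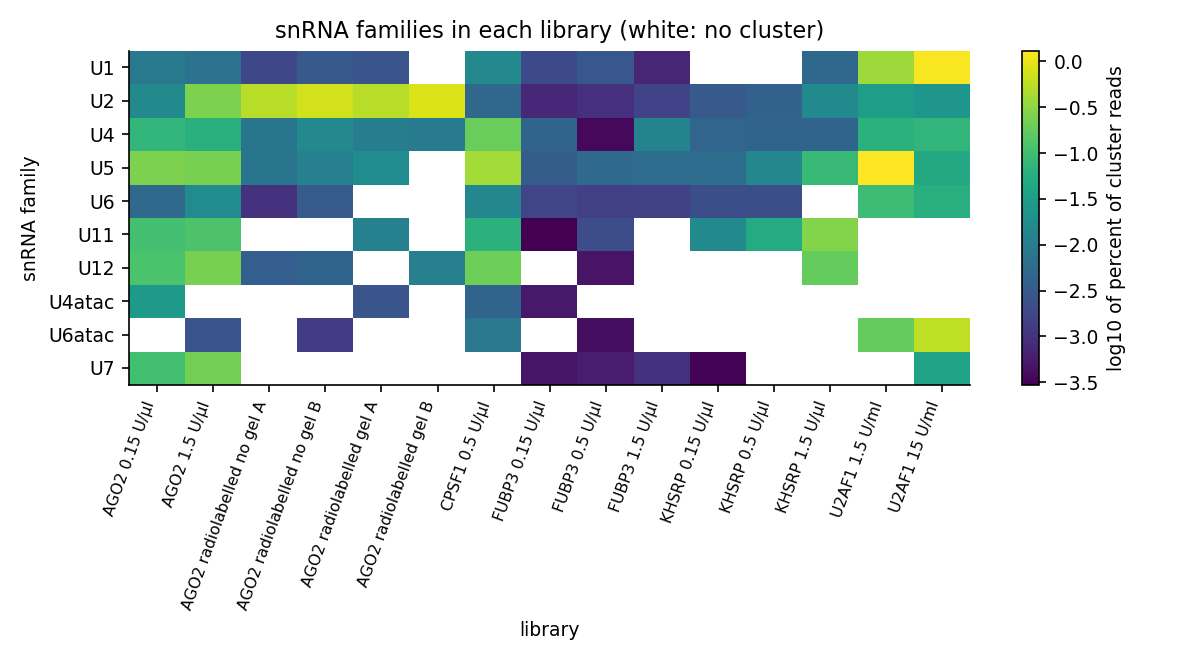
Colour map of log10 of the percentage of cluster reads for each snRNA family (rows) in each library (columns), brighter for higher shares; white cells have no cluster. U2 is the brightest row of the radiolabelled AGO2 columns (0.528% to 0.844%), U11 of KHSRP at 1.5 U/µl (0.277%), U5 of CPSF1 (0.405%) and U1 of U2AF1 at 15 U/ml (1.21%).

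The H/ACA RNAs were concentrated in AGO2. SNORA33 had 3694 reads at 0.15 U/µl and 1985 at 1.5 U/µl, which is 1.25% and 0.591% of the reads. It had 1143, 771, 383 and 202 reads in the radiolabelled libraries (ungelled A and B, then gel-purified A and B) and 6 in KHSRP at 0.15 U/µl. SNORA4 had 1597 reads in AGO2 at 0.15 U/µl and no cluster at 1.5 U/µl, 123, 133, 11 and 15 in the radiolabelled libraries, and 95 in CPSF1. SNORA19 had 338 and 129 reads in AGO2, and SNORA53 199 and 224. SNORA51 had 121 reads in AGO2 at 1.5 U/µl, 57 in a radiolabelled library without the gel and 53 in CPSF1. SNORA17 had 197 reads at 0.15 U/µl.

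The AGO2 reads of these RNAs came from their 3′ part. Clusters centred past the midpoint of the RNA held 96.8% and 99.1% of the placed H/ACA reads in AGO2 with RNase I, and 96.5%, 92.6%, 100% and 100% in the radiolabelled libraries. The corresponding value was 49.5% in CPSF1, 64.0%, 67.3% and 48.6% in KHSRP, and 74.0%, 33.1% and 0% in FUBP3, whose H/ACA reads numbered at most 118. Clusters that ended within 10 nt of the annotated 3′ end held 93.7% and 91.9% of the H/ACA reads in AGO2, 44.3% in CPSF1, and 6.38%, 0% and 21.0% in KHSRP. The radiolabelled libraries had 79.3%, 90.3%, 91.6% and 9.42% in the same order. In the last of these the SNORA33 cluster ended at nt 97.

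The AGO2 clusters of 4 H/ACA RNAs and 1 Cajal body RNA at 0.15 U/µl (SNORA36B at 1.5 U/µl) are printed because they show this shared end; capitals mark the last ACA of each. They lie in hg38 at chr6:132817285-132817348 (plus strand), chr3:186787685-186787749 (plus), chr10:119060013-119060073 (minus), chr1:220200547-220200577 (minus) and chr15:82756036-82756071 (plus).
SNORA33: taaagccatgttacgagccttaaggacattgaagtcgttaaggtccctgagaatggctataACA
SNORA4: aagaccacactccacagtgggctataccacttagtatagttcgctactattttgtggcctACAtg
SNORA19: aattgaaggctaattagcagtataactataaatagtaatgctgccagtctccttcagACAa
SNORA36B: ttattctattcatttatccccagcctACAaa
SCARNA15: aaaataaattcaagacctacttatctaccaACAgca
The SNORA33 cluster covered nt 67 to 130 of 133, the SNORA4 cluster nt 73 to 137 of 137 and the SNORA19 cluster nt 66 to 126 of 128. Of the SNORA33 reads 30.9% and 34.2% were converted at the 2 RNase I doses, and of the SNORA4 reads 29.1%, against 60.0% and 60.3% of all AGO2 cluster reads. In the radiolabelled libraries 70.4% to 74.1% of the SNORA33 reads with a conversion tally were converted.

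**Figure D4:**
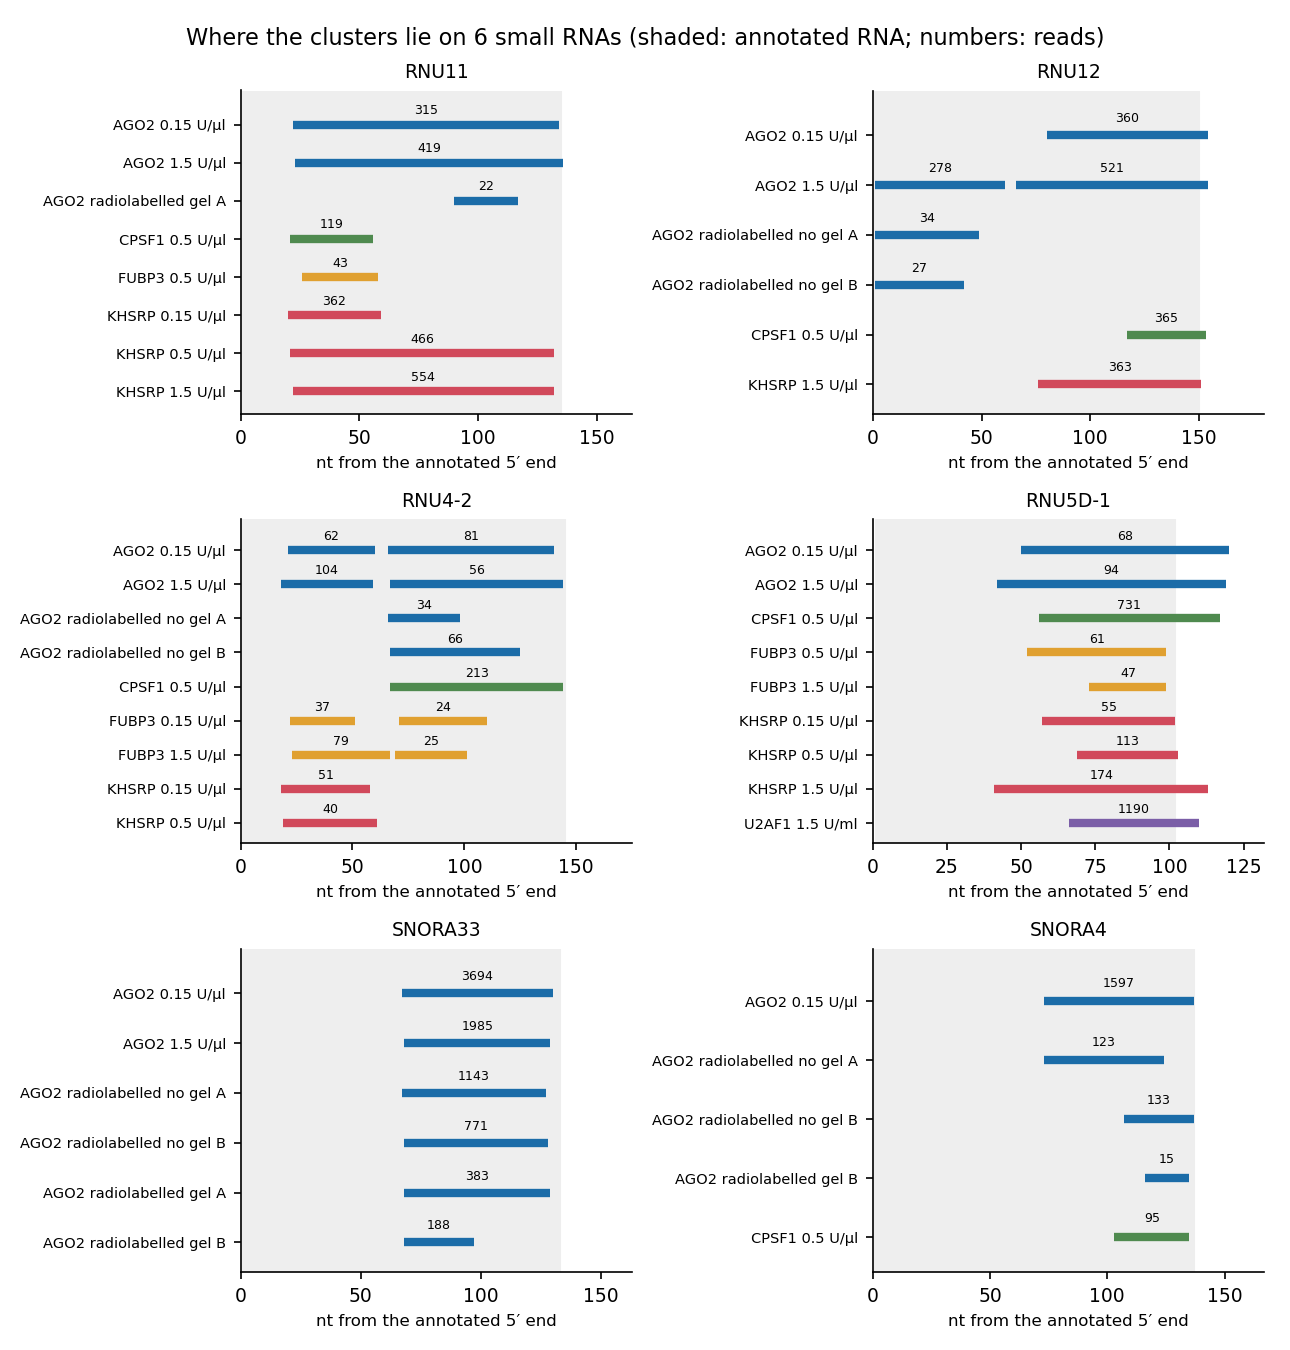
Clusters on 6 small RNAs, drawn in nt from the annotated 5′ end, 1 row per library, with the annotated RNA shaded and the number of reads beside each cluster. RNU11 in KHSRP extends from nt 20 to 59 at 0.15 U/µl and to nt 132 at the higher doses, and SNORA33 in AGO2 starts at nt 67 or 68 in all 6 AGO2 libraries.

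SCARNA15, a Cajal body RNA of the H/ACA type, was recovered with AGO2 in every library. It had 410 and 408 reads with RNase I (0.139% and 0.121%), and 977, 395, 257 and 77 in the radiolabelled libraries. With RNase I all of them lay at the 3′ end, from nt 92 or 93 to nt 127 of 127. In 2 radiolabelled libraries, replicate A without and with the gel, a second cluster of 571 and 156 reads accompanied the 3′ cluster of 406 and 101. The 22-base sequence of that cluster is printed with the 3′ cluster because they are complementary over the runs in capitals.
SCARNA15 second cluster: aaGGTAGATAgaacAGGTCTTG
SCARNA15 3′ cluster: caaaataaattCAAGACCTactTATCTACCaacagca
Clusters with this name in FUBP3 (19, 37 and 24 reads) and KHSRP (69 and 46 reads at the lower doses) lay between 51 and 2598 nt away from the annotated RNA, with none on it.

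Some H/ACA RNAs contain a microRNA, and AGO2 binds microRNAs, so these were examined by sequence. Of 9 snoRNAs and Cajal body RNAs on the list for this, 4 contained a RefSeq hairpin: SNORA36B (MIR664A), SNORA34 (MIR1291), SNORA81 (MIR1248) and SNORA84 (MIR3651). SNORA36B had 67 and 103 reads in AGO2 with RNase I, 107 and 49 in the ungelled radiolabelled libraries and 6 in gel-purified replicate B. The whole of miR-664a-3p (23 nt) was in the cluster in all 5, and in the library with the gel the cluster was the microRNA exactly. The other libraries had no SNORA36B cluster. In CPSF1 the 81 reads of SNORA81 formed a cluster of 26 nt that matched miR-1248 at 26 of its 27 nt, and 4.94% of them were converted. In 1 ungelled AGO2 library a cluster of 5 reads shared 20 nt with the same microRNA, whereas the AGO2 clusters with RNase I, of 56 and 21 reads, lay elsewhere, at nt 145 to 176 and 147 to 174. Both microRNAs are printed from RefSeq with the seed (bases 2 to 8) in capitals, followed by the CPSF1 cluster (chr3:186786675-186786700, plus strand, hg38).
miR-664a-3p: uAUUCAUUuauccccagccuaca
miR-1248: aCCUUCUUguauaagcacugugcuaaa
SNORA81 in CPSF1: accttcttgtataagcactgtgctaa
SNORA34 had no cluster in any library, and SNORA84 had one in 2 libraries, of which the FUBP3 cluster of 7 reads shared 17 bases with miR-3651. Outside that list, a SCARNA3 cluster of 41 reads in ungelled replicate A contained the whole of miR-1843 (20 nt), and clusters named SNORA36A contained the whole of miR-664b-5p (24 nt), with 8 reads in KHSRP at 0.15 U/µl and 11 in U2AF1 at 15 U/ml.

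C/D box RNAs made up 2.54% and 4.18% of the member reads of AGO2 with RNase I. They made up 37.9%, 25.7% and 21.1% of those of KHSRP and 25.4%, 28.7% and 31.6% of those of FUBP3. As a share of all reads the order differed. C/D box RNAs held 0.0784% and 0.0929% in AGO2 with RNase I, above KHSRP at the lower doses and FUBP3 at every dose. In KHSRP they held 0.0618%, 0.0362% and 0.177% against 0.0642%, 0.0230% and 0.0904% for H/ACA RNAs. In FUBP3 they held 0.00719%, 0.00901% and 0.0160%. SNORD56 had 20, 33 and 58 reads in KHSRP at the 3 doses, with clusters that all ended at nt 72, 1 nt past the annotated end. Its ratio between the outer doses was 31.5 (interval 18.6 to 55.2). In AGO2 it had 32 and 28 reads with the same end. SNORD72 had 77 reads in AGO2 at 1.5 U/µl and SNORD10, with 30 and 72, was 2.11-fold higher at that dose. SNORD58A had 59 reads in CPSF1, of which 13.6% were converted, and 82 in KHSRP at 0.15 U/µl. SNORD18B, SNORD35B and SNORD83A had at most 60 reads in any library but those of U2AF1.

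Some of the best known nucleolar RNAs were seen in few reads. SNORD118 (U8), which takes part in processing of the large ribosomal subunit RNA, had 17 and 12 reads in the ungelled AGO2 libraries. It also had 18 and 32 in FUBP3 at the upper doses and 16 in KHSRP at 0.15 U/µl. U3 was listed as SNORD3B-2 with 9 reads in CPSF1, 7 in AGO2 at 1.5 U/µl and 5 in FUBP3 at 0.5 U/µl. As SNORD3A it had 7 reads in that FUBP3 library. SNORA73A and SNORA73B (U17), which take part in cutting the ribosomal RNA precursor, had 130, 19 and 26 reads (SNORA73A in KHSRP) and, for SNORA73B, 47 and 61 in the ungelled AGO2 libraries, 5 and 27 in FUBP3 at the outer doses and 20 in KHSRP at 0.15 U/µl. U14 was listed under SNORD14 names in KHSRP, where SNORD14C had 16 and 30 reads at the upper doses, and SNORD14E had 18 in FUBP3 and 25 in KHSRP at 1.5 U/µl. SNORD14A had 32 reads by name in U2AF1 at 1.5 U/ml, 7 in AGO2 at 1.5 U/µl and 6 in FUBP3 at 0.15 U/µl. SNORD13 (U13) had 31 reads in AGO2 at 0.15 U/µl and 22 in KHSRP at 1.5 U/µl. It also had 10 in FUBP3 at 0.5 U/µl and 7 in ungelled AGO2 replicate A.

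At the lowest dose KHSRP clusters with nucleolar names often ran beyond the annotated RNA. Of the bases in those clusters 53.0% lay inside the annotated RNA at 0.15 U/µl, 74.4% at 0.5 U/µl and 88.4% at 1.5 U/µl. Clusters of over 100 nt numbered 11 and held 58.9% of the placed reads at 0.15 U/µl, and there were none at the higher doses. AGO2 had 99.8% and 99.7% of such bases inside. Long KHSRP clusters lay beside the H/ACA and C/D RNAs hosted by TAF1D on chromosome 11. SNORA32 had 326 reads in a cluster of 358 nt with 285 of them outside the RNA, and 10 and 26 reads at the higher doses. SNORA8 had 152 reads over 227 nt with 207 outside, and SNORA1 190 reads over 182 nt with 164 outside. The SNORD5 cluster, with 249 reads, is printed whole as an example (chr11:93733115-93733356, minus strand, hg38), with the 73 annotated bases in capitals and the flanking bases in lower case.
SNORD5 in KHSRP at 0.15 U/µl: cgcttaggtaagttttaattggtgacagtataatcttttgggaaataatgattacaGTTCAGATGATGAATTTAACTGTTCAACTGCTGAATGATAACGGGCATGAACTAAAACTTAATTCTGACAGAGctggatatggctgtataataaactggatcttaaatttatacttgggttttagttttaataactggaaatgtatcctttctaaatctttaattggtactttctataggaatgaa
The C box of C/D RNAs was searched as TGATGA on both strands. It was in 15 of 43 SNORD clusters of KHSRP at 0.15 U/µl (34.9%) against 2.32% of other clusters of the same lengths, in 8 of 25 at 0.5 U/µl and in 6 of 26 at 1.5 U/µl. In AGO2 it was in 0 of 9 and 2 of 14.

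Clusters that touched RefSeq small RNA genes also stood under other names, among them names of host genes. In KHSRP at 0.15 U/µl 60 clusters with 1403 reads touched such genes, on either strand, but were named otherwise. Of these, 10 with 767 reads were named GAS5, over 8 C/D RNAs of that host gene. All reads of a touching cluster are counted, including those outside the RNA. Those clusters held 0.0646% of the reads, beside 0.163% for the members. At 0.5 and 1.5 U/µl 29 and 14 such clusters held 336 and 143 reads. The other libraries with coordinates had between 14 and 247 such reads.

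In U2AF1 the reads under nucleolar names came largely from 1 place. A cluster named SNORA75 on chromosome 12 (chr12:12603882-12603906, minus strand) held 2752 reads at 1.5 U/ml and 1785 at 15 U/ml, or 2.89% and 3.33%. It made up 60.3% and 66.7% of all reads under snoRNA or Cajal body names. RefSeq places SNORA75 elsewhere, on chromosome 2 from 231455800 to 231455936. The cluster is printed with clusters named as copies of U2 in the same library, since its sequence is close to theirs: RNU2-17P (chr1:150236968-150236995, plus strand) matched it with 2 edits and RNU2-13P (chr2:11561196-11561221, plus strand) with 3. Capitals in the copies mark runs of at least 10 bases shared with it.
Cluster named SNORA75: GCTTCTCGGCCTTTGGCTAAGATCA
RNU2-13P: tGCTTCTCGGCCTTTTGGCTAAGAcc
RNU2-17P: tcgcttctctgcctTTTGGCTAAGATCA
Clusters within 2 edits of this sequence numbered 27 in each U2AF1 library, on 17 chromosomes, with 4288 and 3385 reads in sum. Whether the same reads were listed at several of these copies was not tested, so the sums may count reads repeatedly. The other 13 libraries had between 0 and 4 such clusters. In AGO2 at 0.15 U/µl an unnamed cluster of 26 reads lay at the same chromosome 12 site. Counted as snRNA, the cluster alone took the spliceosomal part of the U2AF1 member reads from 30.2% to 72.3% and from 29.0% to 76.4%.

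The remaining nucleolar names of U2AF1 mostly did not lie on a RefSeq small RNA. Of all 221 and 114 clusters under snoRNA or Cajal body names, 25 and 29 did. Whether the rest lay in host genes was not tested. SNORA4, SNORA63 and SNORA81, all in EIF4A2, had 126 reads each at 1.5 U/ml and 39 each at 15 U/ml because their names share the same merged clusters. SNORD56, SNORD57 and SNORD86, in NOP56, likewise shared 40 and 71 reads. SNORD74 had 124 and 32 reads and SNORA25 153 and 45. By position the C/D share was 0.237% and 0.426% and the H/ACA share 0.130% and 0.0859%, against 0.677% and 0.667%, and 3.77% and 3.97%, by name.

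Pairs of libraries were compared gene by gene where both had at least 20 reads, counting a share as different when it was past 2-fold. Members with fewer than 20 reads in either library are left out, so the counts do not speak for them. Between AGO2 doses 7 of 23 members were past 2-fold (3 higher and 4 lower at 1.5 U/µl), beside 15.7% of 313 genes. RNU2-2P, RNU7-1 (2.23-fold) and SNORD10 were higher. SNORA81 (3.03-fold), SNORA19 (2.97-fold), SNORA14A (2.36-fold) and SNORA33 (2.11-fold) were lower, all of the H/ACA class. The median log2 ratio was −0.16 for members and −0.05 for all genes. In distinct sequences 3 members were higher and 1 lower of 22, so the number of lower members depended on counting reads. The split was 3 and 5 at 10 reads, 1 and 2 at 50 reads, and 4 and 4 under median-of-ratios scaling. The combined snoRNA and Cajal body share of distinct sequences was still lower at 1.5 U/µl (1.16% against 2.47%). Between the outer KHSRP doses 4 of 5 members were past 2-fold, beside 29.7% of genes. With 200210 reads against 2172248, the minimum of 20 reads kept mainly members with a high share at 1.5 U/µl, so nothing is read from this count or its direction. SNORD5 (249 and 10 reads) and SNORA1 (202 and 11 reads) were left out for this reason. RNU5D-1 was 34.3-fold higher and SNORA32 0.865-fold. Between 0.15 and 0.5 U/µl, with the same limit, it was 5 of 10, beside 12.2%, with RNU5D-1 4.93-fold, SNORD56 3.96-fold and RNU11 3.09-fold higher and SNORA1 2.48-fold lower.

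In FUBP3 too few members reached 20 reads for such a comparison: none between 0.15 and 0.5 U/µl (beside 10.9% of genes) and RNU4-2 alone between 0.15 and 1.5 U/µl (beside 16.6%). Between the U2AF1 doses 8 of 27 members by name were past 2-fold, 6 higher and 2 lower at 15 U/ml (6 and 1 under median-of-ratios scaling), beside 20.3% of 138 genes. The snRNA copies RNU1-148P (3.98-fold), RNU6ATAC31P (3.24-fold) and RNU6ATAC30P (3.08-fold) were higher, as were the 3 names of NOP56. Those 3 names share the same 71 and 40 reads at 15 and 1.5 U/ml. Other names among the 27, such as SNORA4, SNORA63 and SNORA81, share merged clusters too. The count is thus of names and not of separate RNAs, and nothing is read from it beside the share of genes. SNORD74 (2.18-fold) and SNORA73 (2.01-fold) were lower.

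Between proteins at matched doses, the members with 20 reads in both libraries that were past 2-fold were lower in FUBP3 than in KHSRP. This was 2 of 4 members at 0.15 U/µl (beside 45.3% of genes), 3 of 3 at 0.5 U/µl (37.3%) and 2 of 2 at 1.5 U/µl (30.6%). RNU11 was 23.6-fold lower and RNU5D-1 4.04-fold lower in FUBP3 at 0.5 U/µl, where the third, SCARNA15, had clusters off the RNA in both. RNU4-2 went the other way at 1.5 U/µl, with 104 reads in FUBP3 and no KHSRP cluster, and so was not counted. AGO2 was higher than KHSRP for 8 of 8 members at 0.15 U/µl (beside 71.1% of 235 genes), from 6.39-fold for RNU11 to 43.6-fold for SCARNA15, although the KHSRP clusters of that name lay off the RNA. Members listed in KHSRP without an AGO2 cluster, such as SNORA32 (326 reads) and SNORD5 (249 reads), were not counted. With 295889 reads in AGO2 against 2172248 in KHSRP, the minimum kept mainly members with a high AGO2 share. Nothing is therefore read from the direction of these 8. At 1.5 U/µl the count was 4 of 6 (55.9%), with RNU2-2P higher in AGO2 (13.6-fold) and RNU11, RNU5D-1 and SNORD56 lower (2.22-fold, 3.11-fold and 3.48-fold). That split turned with the scaling: the median log2 ratio of all genes in this pair was −0.66, and with it taken out 3 members were higher and 1 lower. Over the protein pairs this median ran from −0.66 to 1.02, and no other split of members by direction turned with it. Against FUBP3, AGO2 was higher for 2 of 2 members at 0.15 U/µl (71.3%) and 3 of 3 at 1.5 U/µl (63.1%), one of them SCARNA15, whose FUBP3 cluster lay off the RNA. CPSF1 was higher than FUBP3 for 2 of 2 members (46%) and than KHSRP for 2 of 3 (55.1%), where RNU11 differed by 1.28-fold (interval 1.04 to 1.57). Over the 15 pairs, which share libraries, 53 of 99 comparisons were past 2-fold. The share of all genes past 2-fold ran from 10.9% to 71.3% over these pairs. Within a pair the minimum of 20 reads favoured members with a high share in the shallower library. Nothing is therefore read from the pooled count or from a uniform direction.

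Conversion was lower in member clusters than in all clusters in 13 of the 15 libraries. In CPSF1 28.8% of member reads were converted against 92.7% of all, in KHSRP 64.4%, 62.6% and 51.5% against 73.5%, 78.7% and 90.1%, and in FUBP3 68.1%, 78.2% and 67.7% against 83.3%, 83.1% and 90.1%. AGO2 with RNase I had 40.1% and 45.0% against 60.0% and 60.3%, and the radiolabelled libraries 60.3% to 64.1% against 72.6% to 79.4%. Those last values cover fewer member reads, 3918 of 7783, 2590 of 6237, 1017 of 1749 and 469 of 977, because the deposited tally of conversions did not include every read. In U2AF1 the values were 46.5% and 53.9% against 44.8% and 44.5%, the reverse order. Whether the unconverted reads are RNA that was not crosslinked was not tested.

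The gel comparison was the one with replicates, and no member differed by its test. Of 1121 genes that had a cluster in all 4 radiolabelled AGO2 libraries and at least 10 reads over them, 3 (0.268%) passed an adjusted p of 0.05 by edgeR's quasi-likelihood test, and 5 members were among those tested. RNU2-2P had 7307 and 10219 CPM (TMM-scaled counts relative to library size) in the ungelled pair and 7881 and 10892 in the gel-purified pair, so the groups overlapped (log2 ratio without over with −0.10, SE 0.24, adjusted p = 0.891 by edgeR). SNORA33 had 1729 and 1777 in the ungelled and 3144 and 3359 in the gel-purified pair. Its groups did not overlap, and it was lower without the gel by a log2 ratio of −0.89 (SE 0.22, unadjusted p = 0.00399, adjusted p = 0.205 by edgeR over all genes), a difference in both replicates that failed the correction. SCARNA15 had 1478 and 910 against 2110 and 1280 (log2 −0.52, SE 0.34, adjusted p = 0.509 by edgeR). SNORA4 had 186 and 306 against 90.3 and 249, and RNU4-2 62.0 and 152 against 115 and 116, with adjusted p of 0.643 and 0.952 by edgeR. At an unadjusted p under 0.05 there were 149 genes and 1 member by edgeR, and DESeq2 called 0 members, with 1 at that unadjusted level. The groups of 529 genes did not overlap.

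As a share of all reads, the H/ACA class held 0.174% and 0.182% in the ungelled libraries and 0.237% and 0.295% in the gel-purified ones. The difference had an exact two-sided permutation p of 0.333, the smallest that 2 against 2 libraries allow. The snRNA share was 0.550% and 0.772% against 0.577% and 0.865%, with overlapping groups (exact permutation p = 0.667). C/D box RNAs had 37 and 28 reads without the gel and were not listed with it. The libraries without the gel had 929424 and 608223 reads in clusters and those with it 183250 and 77572, so a cluster of 5 reads was a smaller share of the former. MicroRNA clusters held 34.9% and 40.4% of the ungelled reads and 52.3% and 59.7% of the others. Of reads outside microRNA and rRNA clusters, snRNAs held 0.847% and 1.30% in the ungelled libraries and 1.21% and 2.16% in the gel-purified ones. The snoRNAs and Cajal body RNAs together held 0.442% and 0.427% against 0.794% and 0.984%. The cause of these differences was not tested.

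**Figure D5:**
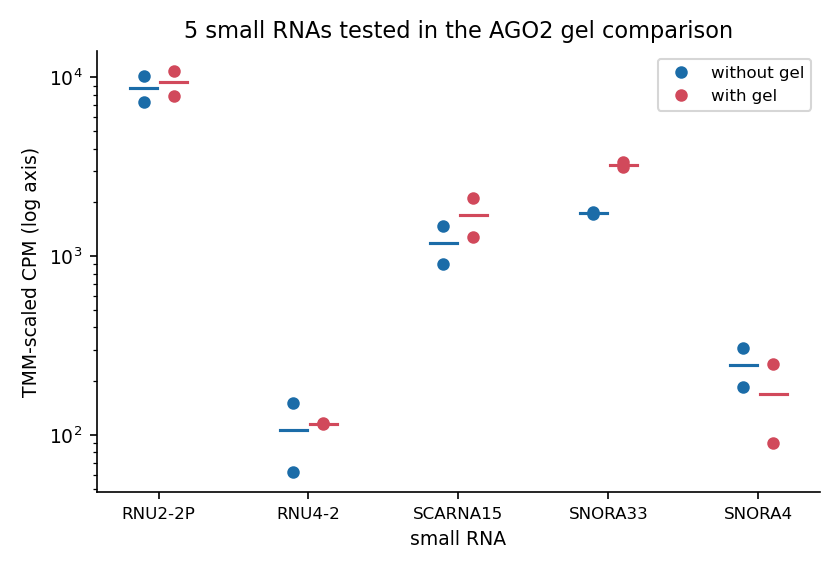
TMM-scaled CPM (log axis) of the 5 members tested in the 4 radiolabelled AGO2 libraries, without and with the urea gel; points are the 2 replicates and short bars their mean. The 2 groups separate for SNORA33 (1729 and 1777 against 3144 and 3359) and overlap for RNU2-2P, RNU4-2, SCARNA15 and SNORA4.

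Other genes of the same pathways were counted by lists of names. Of 26 snRNP protein genes, among them those of the Sm ring, 20 to 22 had clusters in each FUBP3 library (0.178%, 0.170% and 0.120% of reads) and 2 or 3 in AGO2 with RNase I. Of 13 snoRNP protein genes 6 to 8 had clusters in each FUBP3 library, with 0.112% to 0.136% of reads. In FUBP3 the clusters under either list of gene names thus held more reads than the members. In KHSRP the snRNP list held 0.120%, 0.0930% and 0.0809% and the snoRNP list 0.109%, 0.107% and 0.0819% at the 3 doses. The KHSRP members held 0.163%, 0.141% and 0.839%, so both lists together exceeded them at the lower doses. Host genes of snoRNAs held 0.385%, 0.353% and 0.275% of KHSRP reads. Other short noncoding RNAs on the list (Y RNAs, vault RNAs, RN7SK, RMRP and the like) held 15.3% and 9.21% of AGO2 reads with RNase I, 1.10% to 1.73% in the radiolabelled libraries and 0.0438% in CPSF1. In the gel comparison 4 snRNP protein genes, 1 snoRNP protein gene, 3 host genes and 4 of the other short RNAs were tested, and edgeR called 0 of each.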

How the data were processed

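PAR-CLIP clusters of 15 libraries were used, 4 samples of the series were not analysed here and 2 libraries were left out by the rule for members. Per the submitters' processing notes, reads were demultiplexed with bcl2fastq 2.20.0, trimmed with cutadapt 1.15 and placed on hg38; the aligner, cluster caller and annotation are not given in the sources used here. Each deposited file lists 1 library's clusters with raw read counts, unnormalised, per the file headers. The deposited conversion values are fractions of reads with a T-to-C change, per the file headers. In the U2AF1 files the deposited total was a whole multiple (2 to 13) of crosslinked reads over the converted fraction in 2727 of 8003 and 970 of 2760 clusters. It was divided out, taking the totals from 147453 to 95341 and from 75383 to 53546. Coordinates of the radiolabelled AGO2 files did not match hg38, so their clusters were placed by at least 18 bases shared with a same-named cluster of an hg38 library (89.7%, 93.6%, 85.2% and 96.5% of member reads). Other positions come from RefSeq GRCh38.p14.

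Read counts were summed per name and the gel groups tested with edgeR 4.0.16 (R 4.3.3), the quasi-likelihood test, TMM scaling and Benjamini-Hochberg adjustment, on 1121 names with a cluster in each library and at least 10 reads. On simulated counts for this comparison, run on 1121 genes, 81 of 100 genes changed 4-fold were recovered, with 4 unchanged genes called. Replicate letters did not pair libraries (correlation of deviations −0.0119). Without replicates, shares have exact 95% binomial intervals (scipy 1.17.1) and folds of 2 are counted where both libraries have 20 reads. Intervals cover counting error only, and PCR duplicates are not independent molecules. Among 105 pairs of libraries none was identical. Alternatives were DESeq2 1.42.0, its size factors, other minimum reads, distinct sequences, merged names, microRNA-free denominators, the replicate block and leaving out each library.

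Members and lists were chosen with earlier results of these data known. Names were drawn mainly from the spliceosomal snRNAs, the 5 highest members per protein and class, the tested gel members and microRNA-bearing snoRNAs. The 5 members furthest in each direction per pair, and U3, U8, U13, U14 and U17, were drawn on too. Not every member of these sets is given above. The U4, H/ACA and other clusters printed as sequences were chosen after their values were seen.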

Additional observations from a re-analysis of the deposited data

Results flagged for a closer look

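The combined snoRNA and Cajal body RNA share moved in different directions with the RNase I dose. From 0.15 to 1.5 U/µl the difference in percentage points of cluster reads was −1.31 in AGO2, 0.0128 in FUBP3 and 0.138 in KHSRP. Each protein had 1 library per dose, so the difference between the proteins was not tested. In KHSRP at 0.15 U/µl, 60 clusters with 1403 reads touched RefSeq small RNA genes but carried other names, so they stand outside every member count above.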

How the results depend on the processing

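In the gel comparison edgeR and DESeq2 called 0 members under all 11 alternatives run, and SNORA33 stayed lower in the ungelled libraries (log2 −0.90 to −0.44, adjusted p 0.188 to 0.560). With the replicate block edgeR again called 0 members, with a lowest adjusted p of 0.201. Genes called numbered 3, and 13, 14, 8 and 0 without ungelled A, ungelled B, gel-purified A and gel-purified B; distinct sequences gave 5, and 1 minimum share or no cluster requirement gave 0. The difference in all-member share (−0.176 percentage points) was −0.328 to −0.0230 with 1 library left out. It was −1.06 with microRNA clusters left out of the denominator and 0.221 under 1 minimum share of reads (exact permutation p = 0.333). For snRNAs it was −0.204 to 0.0843 with 1 library left out, 0.000744 in distinct sequences and 0.246 under the minimum share, where SCARNA gave 0.00549 and SNORD had no cluster left. RNU2-2P gave log2 ratios of 0.0871 with no cluster requirement, 0.34 under the minimum share, and −0.31 to 0.27 with 1 library left out; RNU4-2 gave 0.0764 with no requirement, 0.15 in distinct sequences, and −0.84 to 0.40. With 1 library left out SCARNA15 ranged from −0.90 to −0.03 and SNORA4 from 0.05 to 1.56. Counts of members past 2-fold, 53 of 99, were 91 of 159 at 10 reads, 21 of 37 at 50 reads, 19 of 39 in distinct sequences, 52 of 99 under median-of-ratios scaling and 59 of 114 with the deposited U2AF1 totals; fewer or more members enter most of these. The pairs differ in the share of all genes past 2-fold, so nothing is read from these pooled counts. That share moved too, for the AGO2 doses from 15.7% to 22.3% at 10 reads, 6.67% at 50 and 13.2% in distinct sequences. Under median-of-ratios scaling AGO2 over KHSRP at 1.5 U/µl went from 1 higher and 3 lower to 3 and 1. In distinct sequences the members past 2-fold between the AGO2 doses went from 3 higher and 4 lower to 3 and 1. The spliceosomal part of member reads crossed the midpoint in distinct sequences in the radiolabelled libraries (35.6%, 40.0%, 30.9% and 33.5%) and in FUBP3 at 0.15 and 0.5 U/µl (56.0% and 51.3%), and in clusters of at least 10 reads in FUBP3 (60.1%, 52.1% and 53.5%). In U2AF1 it was 84.6% and 78.6% by position and 72.3% and 76.4% with the SNORA75 cluster as snRNA, alternatives chosen after seeing the data. Beyond these constructions, the cause was not tested. Depth limited the pairs to members with 20 reads, of which a library had between 3 and 52.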
